A study of Mus musculus with 2 samples.

Results

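The 9 genes Marco, Msr1, Colec12, Stab1, Stab2, Mrc1, Clec4g, Scarb1 and Fcgr2b encode scavenger, lectin and Fc receptors of cells that line lymph sinuses. They were taken by symbol from a given list, out of 27933 gene symbols counted, and their RNA is described here in endothelial cells of mouse mandibular lymph nodes. Nodes were taken 24 h after subarachnoid haemorrhage (SAH, bleeding around the brain, induced here by infusing autologous blood) or 24 h after a sham operation. Each group was 1 single-cell library made from 20 pooled mice, depleted of CD45-bearing cells and enriched on beads for cells binding anti-CD31 or anti-podoplanin, and each cDNA was tagged at its 5′ end with a unique molecular identifier (UMI), which marks 1 captured RNA molecule. Strain, sex, age and genotype are not given in the sources used here.

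Scavenger receptors bind polyanionic ligands such as modified lipoproteins, microbial surfaces and cell debris and carry them into endosomes, and lectin receptors do the same for sugar-bearing ligands. In a lymph node, lymph passes first under a sinus ceiling and over a sinus floor and then through cortical and medullary sinuses, and the lymphatic endothelium of these spaces takes up particles and proteins alongside the macrophages that sit there. Marco, Msr1 and Colec12 are class A scavenger receptors with collagen-like stalks. Stab1 and Stab2 are the stabilins, large receptors for hyaluronan and modified proteins. Mrc1 (the mannose receptor) and Clec4g (LSECtin) are C-type lectins, Scarb1 is the receptor for high-density lipoprotein, and Fcgr2b is the inhibitory receptor for IgG immune complexes.

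Barcodes with at least 500 genes and at most 10% mitochondrial UMIs were kept, 11454 in the SAH and 11157 in the sham library, with medians of 5747 and 5039 UMIs, and 76 barcode sequences occurred in both libraries. Lymphatic endothelial cells (LEC) had at least 1 UMI of Prox1, which sets lymphatic identity. They were split into floor LEC (at least 2 UMIs of Madcam1 and Coch together), ceiling LEC (at least 1 UMI of Ackr4) and the remaining LEC, which met neither rule. Remaining LEC numbered 898 SAH and 751 sham cells with medians of 7481.5 and 5784 UMIs, floor LEC 432 and 403 cells with 9383 and 8263 UMIs, and ceiling LEC 1176 and 1167 cells with 8173 and 6846 UMIs. A further 56 SAH and 43 sham LEC met both rules and formed a class of their own. Blood endothelial cells (BEC; no Prox1, at least 1 Pecam1 UMI and at least 1 UMI of Ly6c1 and Flt1 together) numbered 6480 and 6329, with medians of 4754 and 4602 UMIs. They were 56.6% of the kept SAH and 56.7% of the kept sham barcodes, whereas the cell type label of both is lymphatic endothelial cells. Levels are CPM, the UMIs of a gene in a class after scaling every class to the same total, and bracketed ranges are exact 95% intervals that cover counting error only. With 1 library a group, the condition and the library cannot be told apart, and no SAH against sham difference has a replicate check or a test.

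Markers of cells that could mimic these receptors were read first, because Marco, Msr1, Mrc1 and Stab1 are also macrophage genes. The 11 macrophage markers summed to 15.3 CPM in SAH and 21.3 CPM in sham remaining LEC, 10.3 and 9.78 CPM in floor LEC, and 14.0 and 9.24 CPM in ceiling LEC. Among them Vsig4 was at 0 in both libraries of remaining and floor LEC, and Adgre1 had 0 SAH and 1 sham UMI in remaining LEC. In remaining LEC 9 of the 11 markers had UMIs in each library. Ptprc had 24 SAH and 26 sham UMIs there, Cd68 22 and 20, and Lyz2 23 and 12. C1qa had 4 and 12, C1qb 17 and 11, and C1qc 4 and 14. The libraries held no macrophage class to set beside these values. The 73 SAH and 131 sham barcodes classed as leukocytes carried the B cell gene Cd79a at 1061 and 827 CPM, with C1qa, C1qb, C1qc, Siglec1 and Vsig4 at 0. Other markers of the macrophage list did have UMIs in them. Lyz2 was at 44.5 CPM in the SAH and 506 CPM in the sham library, and Csf1r at 32.4 and 5.59 CPM. Cd68 was at 12.1 and 11.2 CPM and Adgre1 at 4.05 and 14.0 CPM. UMIs of blood endothelial genes were frequent in LEC, and their source was not tested. Cells with at least 2 UMIs of Ly6c1 and Flt1 together made up 43.7% of SAH and 35.0% of sham remaining LEC, 30.6% and 13.6% of floor LEC, and 31.5% and 18.9% of ceiling LEC, so values without them are given where they bear on a result. Doublet calls covered 15.8% of SAH and 10.1% of sham remaining LEC, and these cells were kept in the values below. A ceiling cell with no captured Ackr4 UMI would also fall in remaining LEC. The 6 ceiling markers, with Ackr4 at 0 there by rule, summed to 1706 CPM in SAH and 1628 CPM in sham remaining LEC. They summed to 4794 and 4488 CPM in ceiling LEC, 491 and 413 CPM in floor LEC, and 1295 and 1103 CPM in BEC. The part of ceiling cells in remaining LEC was not tested.

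Among remaining, floor and ceiling LEC and BEC, the receptors were highest in different classes. Marco, Mrc1 and Clec4g were highest in remaining LEC, and Msr1 and Fcgr2b in floor LEC. Stab1, Stab2 and Colec12 were highest in ceiling LEC, and Scarb1 in BEC. These top classes were the same in both libraries, although not all neighbouring classes were separated by the tests below. The LEC that met both rules were not ranked. They had 75.7 CPM of Fcgr2b in the SAH and 9.78 CPM in the sham library, on 54 and 6 UMIs, beside 32.6 and 13.9 CPM in floor LEC. In the SAH library Marco, Msr1 and Stab1 were at least 1.5-fold higher than in the sham library in both remaining and ceiling LEC, while Stab2 differed by 1.19-fold or less in all 3 LEC classes. Marco in ceiling LEC rested on few cells, with a UMI in 108 of 1176 SAH and 36 of 1167 sham cells. In floor LEC the CPM of Marco, Mrc1 and Colec12 was at least 1.5-fold lower and that of Fcgr2b higher in the SAH library. Each of these rested on few cells or few UMIs. Msr1, Stab1 and Clec4g were higher in the SAH library in floor LEC too, at 1.42, 1.34 and 1.31. Colec12 was below 1 in all 3 LEC classes, and Mrc1 was also below 1 in remaining LEC, at 0.853.

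**Figure D1:**
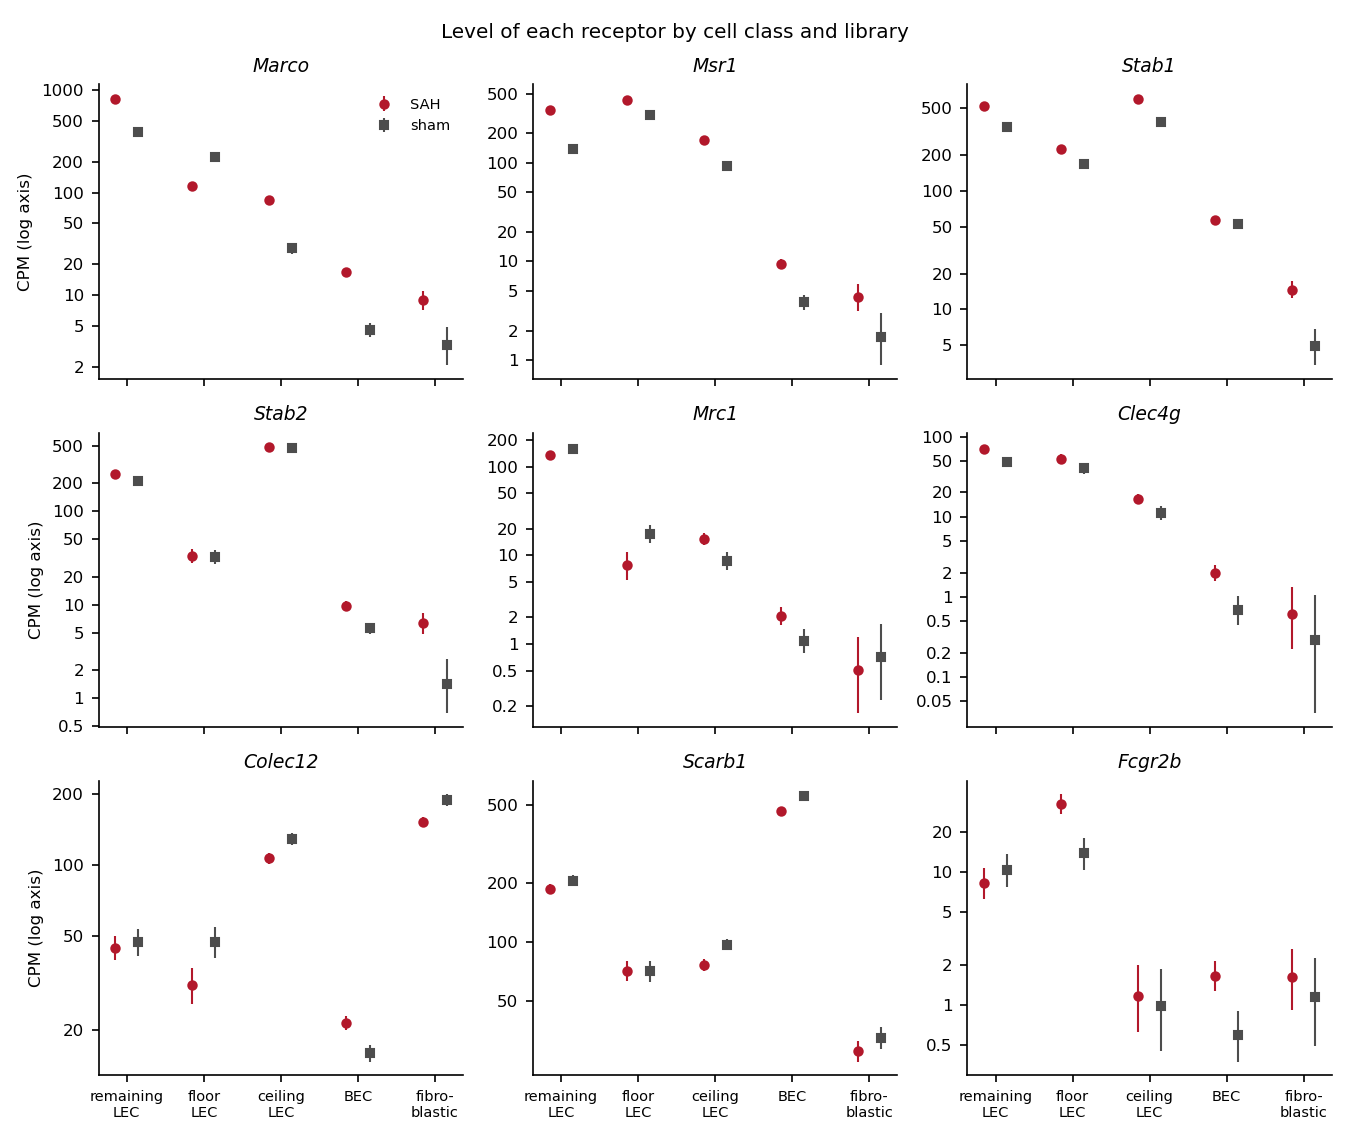
Level of each receptor (CPM, log axes that differ between panels) in 4 endothelial classes and in fibroblastic cells, with SAH in red circles and sham in grey squares and bars for exact 95% counting intervals of 1 library each. Marco is highest in remaining LEC, at 810 CPM in the SAH and 384 CPM in the sham library, and Scarb1 in BEC, at 467 and 561 CPM.

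Differences between classes were tested with edgeR's quasi-likelihood test on the summed UMIs of the 4 classes in both libraries, with the library as a term (n = 2 libraries, 3 residual degrees of freedom, Benjamini-Hochberg adjustment over 12875 genes). The library term takes up the difference shared by all classes. What the test uses as spread is how far class differences vary between these 2 libraries, pooled over the 4 classes. Since library and condition are the same here, that spread includes any SAH against sham difference that is unlike between classes. Between remaining and floor LEC 6 of the 9 receptors differed, 4 higher in remaining LEC and 2 higher in floor LEC. Over all genes 26.9% differed, 13.0% higher in remaining and 13.9% higher in floor LEC. Between remaining and ceiling LEC 8 of 9 differed, 6 higher in remaining LEC and 2 higher in ceiling LEC, and of all genes 18.1% differed, 11.0% and 7.08% in these directions. Between floor and ceiling LEC 7 of 9 differed, 4 higher in floor and 3 higher in ceiling LEC, where the figures over all genes were 33.8%, 18.1% and 15.7%. All 9 differed between remaining LEC and BEC, 8 of them higher in remaining LEC, where the figures over all genes were 37.5%, 17.8% and, for genes higher in BEC, 19.7%. Without the library term the counts of receptors that differed were 3 for remaining against floor LEC and 5 each for remaining against ceiling and floor against ceiling LEC. With Prox1 at 2 UMIs or more, the 6 that differed between remaining and floor LEC were all higher in remaining LEC. Without cells with at least 2 UMIs of Ly6c1 and Flt1, 3 were higher in remaining and 1 in floor LEC.

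Set against the sham library, remaining LEC had 3 of 9 receptors at least 1.5-fold higher in the SAH library and 0 lower, where 8.52% of 10591 genes were higher and 6.74% lower (genes needed at least 50 UMIs over both libraries). In floor LEC 1 of 9 was higher and 3 were lower, where 9.11% and 5.85% of all genes were. In ceiling LEC 4 of the 8 that reached the UMI minimum were higher and 0 lower, where 7.61% and 3.68% of all genes were, and Fcgr2b missed the minimum with 13 SAH and 9 sham UMIs. In BEC 6 of 9 were higher and 0 lower, where 10.5% and 4.5% of all genes were. Over all LEC together 4 of 9 were higher and 0 lower, against 7.89% and 5.03% of all genes. The median log2 difference of the receptors was 0.25 in remaining, 0.05 in floor and 0.61 in ceiling LEC and 0.92 in BEC, beside -0.02, 0.02, 0.02 and 0.03 over all genes measured in those classes.

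**Figure D2:**
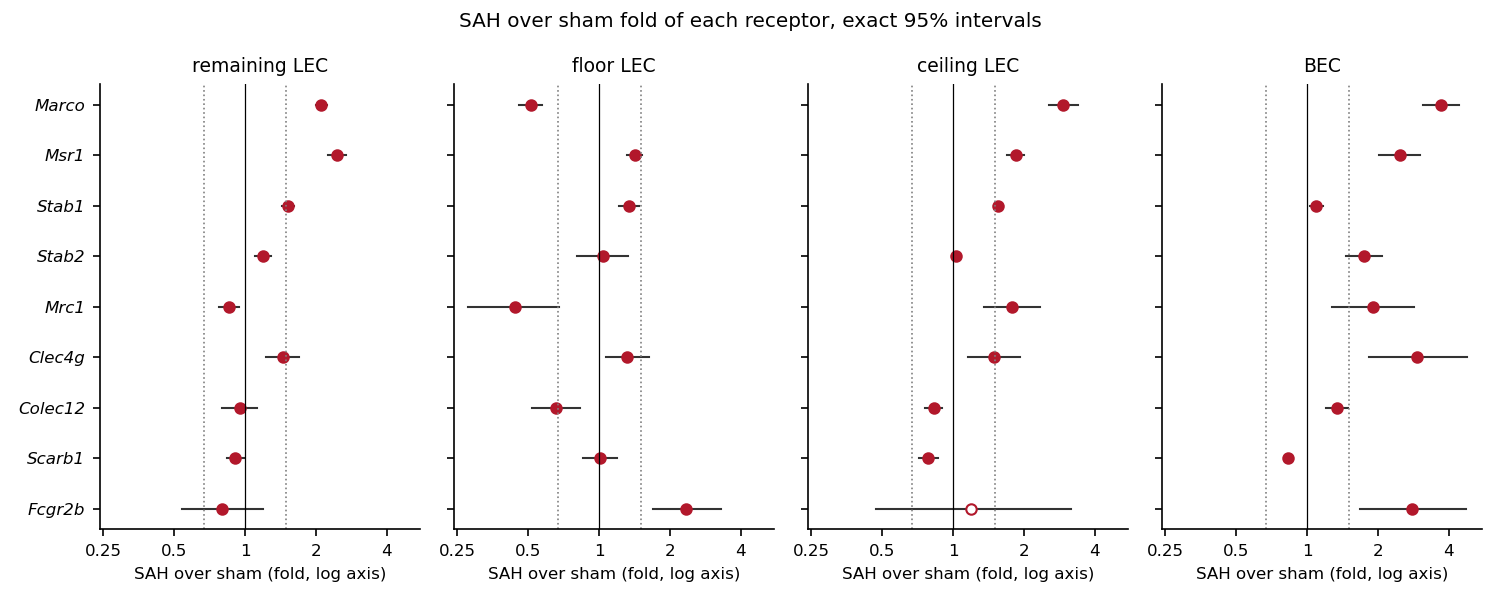
SAH over sham fold of each receptor in 4 endothelial classes on a log axis, with exact 95% intervals. The solid line is equality, the dotted lines mark 1.5-fold in either direction, and the open circle is Fcgr2b in ceiling LEC, which missed the UMI minimum. Marco lies at 2.11 in remaining LEC, 0.514 in floor LEC and 2.94 in ceiling LEC.

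Promoters of the stabilins and Marco are shown because Marco and Stab1 were both higher in the SAH library in remaining and ceiling LEC while Stab2, the close relative of Stab1, was not. Each is the 250 bases before the annotated start, on the minus strand of GRCm38.p6 as RefSeq gives it, at chr1:120505025-120505274 for Marco, chr14:31168642-31168891 for Stab1 and chr10:87007943-87008192 for Stab2. Capitals mark matches to the ETS core AGGAAG or its reverse complement. GENCODE places the start of Stab2 further upstream, at 87008025, so part of the Stab2 window, with its marked match, lies inside that gene.
Marco: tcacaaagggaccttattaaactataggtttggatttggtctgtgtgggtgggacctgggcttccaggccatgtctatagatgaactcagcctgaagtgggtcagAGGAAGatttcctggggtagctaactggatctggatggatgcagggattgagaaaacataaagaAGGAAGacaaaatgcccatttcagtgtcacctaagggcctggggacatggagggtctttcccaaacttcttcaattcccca
Stab1: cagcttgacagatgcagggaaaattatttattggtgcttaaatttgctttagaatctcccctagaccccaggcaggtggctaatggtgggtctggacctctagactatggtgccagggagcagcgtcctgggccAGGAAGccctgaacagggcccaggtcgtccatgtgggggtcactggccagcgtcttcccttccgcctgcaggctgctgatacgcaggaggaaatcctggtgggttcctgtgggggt
Stab2: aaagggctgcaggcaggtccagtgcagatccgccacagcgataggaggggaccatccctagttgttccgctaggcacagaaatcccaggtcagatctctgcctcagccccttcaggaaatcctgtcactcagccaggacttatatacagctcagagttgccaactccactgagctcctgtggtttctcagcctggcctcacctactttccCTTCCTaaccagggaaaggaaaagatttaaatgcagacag
The RefSeq table held promoters of 6 of the 9 genes. AGGAAG, searched on both strands, was found in 5 of these, Marco, Stab1, Stab2, Mrc1 and Clec4g, and in 29.5% of all 32851 promoters of this length. Marco held 2 matches, and Stab1 and Stab2 held 1 each, so the letters did not separate the genes that were higher in the SAH library from Stab2. The interferon-stimulated response element core, the STAT core TTCNNNGAA, the AP-1 site TGANTCA, the PU.1 site GAGGAAGT, which overlaps the ETS core, the MAF site TGCTGAC and the SOX core AACAAT were in 0 of the 6 windows. They were in 2.98%, 7.02%, 6.75%, 2.44%, 3.81% and 9.42% of all promoters.

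Marco, a receptor for bacteria and unopsonised particles (chromosome 1, 120474538 to 120505024, minus strand, GRCm38), was concentrated in remaining LEC. It stood at 810 CPM in SAH and 384 CPM in sham remaining LEC, from 5526 and 1909 UMIs, a fold of 2.11 [2.00, 2.23]. Ceiling LEC had 84.0 CPM in the SAH and 28.6 CPM in the sham library, a fold of 2.94 [2.56, 3.38]. Floor LEC had 115 CPM in the SAH and 223 CPM in the sham library, a fold of 0.514 [0.459, 0.575]. In CPM, Marco was higher in the SAH library in remaining and ceiling LEC and lower in floor LEC, where the share of cells with a UMI ran the other way. Against ceiling LEC it was higher in remaining LEC by 3.43 on the log2 scale (SE 0.54, adjusted p = 0.00242, edgeR), and against floor LEC by 1.43 (SE 0.51, adjusted p = 0.0728), which did not pass the threshold.

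The floor and ceiling values of Marco came from a handful of cells. The 10 cells with the most Marco UMIs held 54.8% of them in SAH and 75.0% in sham floor LEC, and 64.4% and 86.2% in ceiling LEC, but 15.0% and 30.4% in remaining LEC. Without those 10 cells per library the fold was 0.923 [0.761, 1.12] in floor LEC, 7.56 [5.35, 10.98] in ceiling LEC and 2.58 [2.43, 2.74] in remaining LEC. These cells were left out for their own Marco count and held more of the sham UMIs, so the fold without them was higher in these 3 classes. They show how concentrated Marco was and not what the folds rest on. Within the floor class, cells with 2 to 9 UMIs of Madcam1 and Coch had 219 CPM of Marco in the SAH and 482 CPM in the sham library, while cells with 10 or more had 12.4 and 16.2 CPM.

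**Figure D3:**
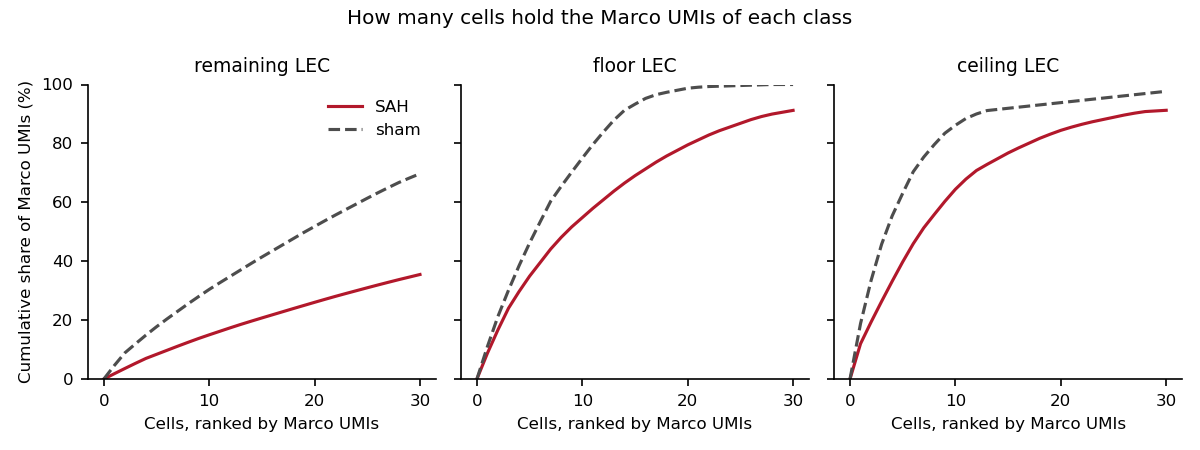
Cumulative share of a class's Marco UMIs (%) held by its 1 to 30 cells with most Marco UMIs, in remaining, floor and ceiling LEC, SAH as a solid and sham as a dashed line. In floor LEC 10 cells hold 54.8% of the UMIs in the SAH and 75.0% in the sham library, and in remaining LEC 15.0% and 30.4%.

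To compare how many cells carried a receptor, every cell was thinned at random to 2000 UMIs, which left out 47 SAH and 30 sham remaining LEC, 2 and 1 floor LEC, 4 and 9 ceiling LEC and 626 and 552 BEC. Marco then had a UMI in 24.6% [21.7, 27.6] of SAH and 11.2% [9.02, 13.8] of sham remaining LEC, and unthinned in 31.7% and 14.6%. Among the thinned cells with a Marco UMI the mean was 6.09 UMIs in the SAH and 6.33 in the sham library. More cells carried Marco in the SAH library at about the same number of molecules each. The share was 7.91% in SAH and 4.98% in sham floor LEC (unthinned 15.7% and 6.95%), the opposite order to the CPM, so no direction is read from it. In ceiling LEC the share was 3.07% and 1.73% (unthinned 9.18% and 3.08%). Fibroblastic cells, which should lack Marco, gave 1.68% and 0.806%, and BEC 1.61% and 0.987%. The ceiling shares were thus not far above these. The SAH over sham fold of Marco was 2.71 in fibroblastic cells and 3.70 in BEC, beside 2.94 in ceiling LEC. The part of free RNA in the ceiling values was not tested.

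**Figure D4:**
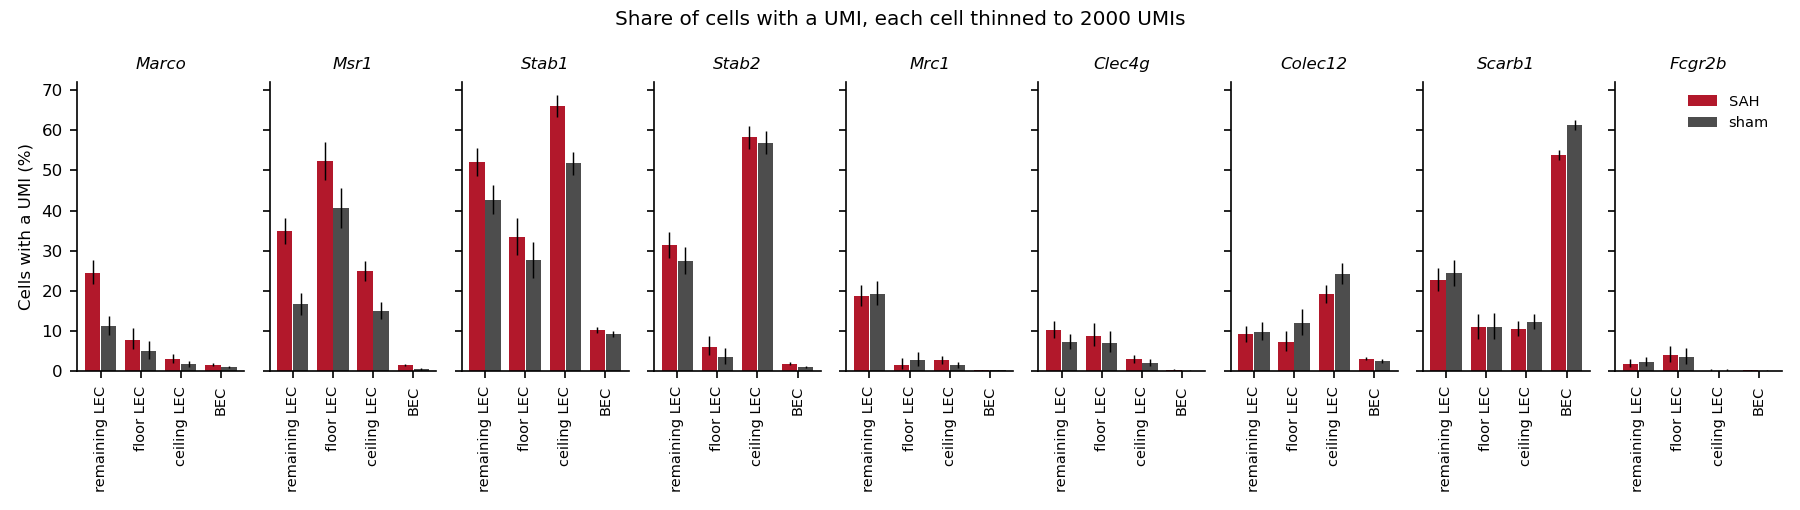
Share of cells with at least 1 UMI of each receptor after thinning every cell to 2000 UMIs (%), in remaining, floor and ceiling LEC and BEC, SAH in red and sham in grey, bars on the columns for exact 95% intervals. For Msr1 the share is 52.3% in SAH and 40.5% in sham floor LEC, and for Marco in remaining LEC it is 24.6% and 11.2%.

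Msr1, the macrophage scavenger receptor for modified low-density lipoprotein (chromosome 8, 39581685 to 39642673, minus strand), was a floor gene that reached every LEC class. Floor LEC had 434 CPM in the SAH and 306 CPM in the sham library, a fold of 1.42 [1.32, 1.53]. Remaining LEC had 341 and 139 CPM, a fold of 2.46 [2.26, 2.68], and ceiling LEC 171 and 92.9 CPM, a fold of 1.84 [1.70, 2.00]. All 3 LEC classes were higher in the SAH library, with floor LEC under the 1.5-fold line. Msr1 was lower in remaining than in floor LEC by -0.88 on the log2 scale (SE 0.18, adjusted p = 0.0059, edgeR) and higher in floor than in ceiling LEC by 1.67 (SE 0.18, adjusted p = 0.000109). With Prox1 required at 2 UMIs or without the library term, the difference between remaining and floor LEC no longer passed, at -0.50 and -0.76.

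The shares of cells with Msr1 were also higher in the SAH library in all 3 LEC classes. After thinning it had a UMI in 34.8% [31.6, 38.1] of SAH and 16.6% [14.0, 19.6] of sham remaining LEC, in 52.3% [47.5, 57.1] and 40.5% [35.7, 45.5] of floor LEC, and in 24.9% [22.5, 27.5] and 15.0% [13.0, 17.2] of ceiling LEC. Unthinned, the shares were 49.3% and 27.7% of remaining, 81.9% and 76.2% of floor, and 50.9% and 35.6% of ceiling LEC. BEC gave 1.57% and 0.571% and fibroblastic cells 1.02% and 0.323%. Unlike Marco, the Msr1 UMIs were spread over many cells, with 8.22% of SAH and 17.0% of sham UMIs of remaining LEC in the 10 highest cells.

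Colec12, the scavenger receptor with a C-type lectin domain (chromosome 18, 9707595 to 9882644, plus strand), was highest in ceiling LEC among the endothelial classes. It stood at 107 CPM in SAH and 129 CPM in sham ceiling LEC, a fold of 0.826 [0.761, 0.896]. Remaining LEC had 44.6 and 47.0 CPM, and floor LEC 31.0 and 47.1 CPM, a fold of 0.658 [0.521, 0.828] on 129 SAH and 183 sham UMIs. It was lower or level in the SAH library in every LEC class, opposite to Msr1. The floor fold was close to the 1.5-fold line, at 0.690 without doublet calls and 0.674 without cells with Ly6c1 and Flt1, both just short of it. It was higher in ceiling than in remaining LEC, by -1.38 on the log2 scale for remaining over ceiling (SE 0.18, adjusted p = 0.00105, edgeR), and its difference between remaining and floor LEC was 0.09 (SE 0.22, adjusted p = 0.809). Fibroblastic cells had more of it than any LEC class, at 152 CPM in the SAH and 189 CPM in the sham library. For Colec12 3.89% of its 50-base exon stretches also occur elsewhere in the annotated transcripts, so its counts may be split with other genes.

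Stab1, which clears modified proteins and carries them to lysosomes (chromosome 14, 31139013 to 31168641, minus strand), was shared by ceiling and remaining LEC. Ceiling LEC had 595 CPM in the SAH and 382 CPM in the sham library, a fold of 1.56 [1.49, 1.62], and remaining LEC 522 and 343 CPM, a fold of 1.52 [1.44, 1.61]. Floor LEC had 225 and 168 CPM, a fold of 1.34 [1.21, 1.48], and BEC 57.2 and 52.2 CPM, a fold of 1.10 [1.03, 1.17]. The folds in ceiling and remaining LEC lay close to the 1.5-fold line, and each stayed above it under every other cell filter, class rule and scaling tried. Stab1 did not differ detectably between remaining and ceiling LEC (log2 -0.19, SE 0.12, adjusted p = 0.347, edgeR), and it was higher in remaining than in floor LEC by 0.98 (SE 0.13, adjusted p = 0.000592).

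Cells carrying Stab1 were also more frequent in the SAH library. The thinned share was 66.0% [63.2, 68.7] of SAH and 51.7% [48.8, 54.6] of sham ceiling LEC, and 52.1% [48.6, 55.5] and 42.7% [39.1, 46.4] of remaining LEC, against 10.2% and 9.26% of BEC. Unthinned, the shares were 95.2% and 89.0% of ceiling and 73.3% and 66.6% of remaining LEC. Ceiling cells with Stab1 held a mean of 1.92 of its UMIs in the SAH and 1.56 in the sham library. Nt5dc2 overlaps Stab1 on the other strand, and whether counting used strand is not given in the sources used here.

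Stab2, the endocytic receptor for hyaluronan (chromosome 10, 86841198 to 87008025, minus strand), was a ceiling gene with little in floor LEC. Ceiling LEC had 484 CPM in the SAH and 472 CPM in the sham library, a fold of 1.03 [0.985, 1.07]. Remaining LEC had 253 and 212 CPM, a fold of 1.19 [1.10, 1.29], and floor LEC 33.6 and 32.4 CPM, a fold of 1.04 [0.809, 1.33]. Stab2 was lower in floor than in ceiling LEC by -3.74 on the log2 scale (SE 0.17, adjusted p = 9.15e-07, edgeR) and lower in remaining than in ceiling LEC by -1.07 (SE 0.14, adjusted p = 0.0011). The shares of cells barely moved between the libraries, at 58.3% [55.4, 61.1] of SAH and 56.9% [54.0, 59.8] of sham ceiling LEC after thinning and 85.2% and 87.4% unthinned, against 1.88% and 1.02% of BEC. In the same ceiling cells Stab1 was 1.56-fold higher, and the interval for Stab2 ended at 1.07.

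Mrc1, the mannose receptor (chromosome 2, 14229392 to 14332057, plus strand), was mainly a gene of remaining LEC. Remaining LEC had 135 CPM in the SAH and 158 CPM in the sham library, a fold of 0.853 [0.775, 0.940]. Floor LEC had 7.68 and 17.5 CPM, a fold of 0.439 [0.279, 0.678] on 32 SAH and 68 sham UMIs. Ceiling LEC had 15.4 and 8.69 CPM, a fold of 1.78 [1.35, 2.35] on 170 and 79 UMIs, which turned to 0.853 when cells were thinned before the classes were made. Mrc1 was higher in remaining LEC by 3.56 on the log2 scale against ceiling LEC (SE 0.28, adjusted p = 7.27e-05, edgeR) and by 3.41 against floor LEC (SE 0.33, adjusted p = 0.000127). The thinned share was 18.8% [16.2, 21.6] of SAH and 19.3% [16.5, 22.4] of sham remaining LEC, and unthinned 33.3% and 30.4%, against 0.273% and 0.260% of BEC, so the thinned share did not separate the libraries.

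Mrc1 was also read in remaining LEC with and without a UMI of Ptx3, a secreted pattern-recognition protein that marks a sinus subset in mouse. Remaining LEC with a Ptx3 UMI numbered 53 in the SAH and 112 in the sham library, and Ptx3 itself was at 19.9 and 71.2 CPM. Since Ptx3 differed between the libraries, the split did not sort their cells alike, and the values below are a description. These cells had 384 CPM of Mrc1 in the SAH and 475 CPM in the sham library, a fold of 0.81 [0.67, 0.97]. Cells without a Ptx3 UMI had 120 and 87.0 CPM, a fold of 1.37 [1.21, 1.56]. The cells without a Ptx3 UMI were 845 SAH and 639 sham cells. Marco was at 317 CPM in SAH and 68.8 CPM in sham cells with Ptx3, and at 842 and 455 CPM in cells without it, folds of 4.61 [3.38, 6.33] and 1.85 [1.75, 1.95].

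Clec4g, a lectin of liver and lymph node sinus endothelium (chromosome 8, 3707064 to 3720651, minus strand), was found in remaining and floor LEC alike. Remaining LEC had 69.4 CPM in the SAH and 48.1 CPM in the sham library, a fold of 1.44 [1.23, 1.69], and floor LEC 53.0 and 40.4 CPM, a fold of 1.31 [1.07, 1.62]. Ceiling LEC had 16.5 and 11.1 CPM, a fold of 1.49 [1.16, 1.92]. Every LEC class was higher in the SAH library and none reached 1.5-fold. Each class passed that line under some other setting. The folds then ran from 1.40 to 1.66 in remaining, 1.19 to 1.56 in floor and 1.42 to 2.19 in ceiling LEC. Among remaining LEC with under 2 UMIs of Ly6c1 and Flt1 the fold was 1.59 [1.33, 1.91]. Clec4g was higher in remaining than in ceiling LEC by 2.07 on the log2 scale (SE 0.17, adjusted p = 8e-05, edgeR), and its difference from floor LEC was 0.18 (SE 0.16, adjusted p = 0.475).

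Scarb1, which takes up cholesterol from high-density lipoprotein (chromosome 5, 125277087 to 125341094, minus strand), was the only receptor of the 9 with its highest level in BEC. BEC had 467 CPM in the SAH and 561 CPM in the sham library, a fold of 0.832 [0.815, 0.849], and the thinned share of cells was 53.7% and 61.2%, and unthinned 73.7% and 79.8%. Remaining LEC had 188 and 206 CPM, a fold of 0.911 [0.838, 0.989], ceiling LEC 76.5 and 97.4 CPM, a fold of 0.785 [0.714, 0.864], and floor LEC 71.5 and 71.0 CPM. It was lower in remaining LEC than in BEC by -1.58 on the log2 scale (SE 0.09, adjusted p = 3.61e-06, edgeR). Most of the remaining LEC signal lay in cells with at least 2 UMIs of Ly6c1 and Flt1, which had 354 CPM in the SAH and 464 CPM in the sham library, against 39.7 and 41.0 CPM in the other remaining LEC. Without such cells the difference between remaining and floor LEC was 0.31 on the log2 scale and no longer passed the test.

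Fcgr2b, which restrains signals from immune complexes (chromosome 1, 170958617 to 170976547, minus strand), gave few UMIs in LEC. Floor LEC had 32.6 CPM in the SAH and 13.9 CPM in the sham library, from 136 and 54 UMIs, a fold of 2.35 [1.70, 3.28]. A single SAH floor cell held 28 of those UMIs, and without the 10 highest cells of each library the fold was 1.90 [1.20, 3.07]. Those cells were left out for their own Fcgr2b count, so this value describes concentration and is no check of the fold. Remaining LEC had 8.36 and 10.5 CPM, a fold of 0.800 [0.539, 1.19]. The thinned share was 3.95% [2.32, 6.26] of SAH and 3.48% [1.92, 5.77] of sham floor LEC, and unthinned 13.2% and 9.68%, against a thinned 0.256% and 0.156% of BEC, so more floor cells with Fcgr2b were not detectable at this depth. Fcgr2b was higher in floor than in ceiling LEC by 4.52 on the log2 scale (SE 0.45, adjusted p = 6.83e-05, edgeR). It is also a B cell gene, and the barcodes classed as leukocytes had 64.8 CPM in the SAH and 44.7 CPM in the sham library, more than floor LEC. The B cell gene Cd79b was at 15.6 CPM in SAH and 10.5 CPM in sham floor LEC, against 9.68 and 5.63 CPM in remaining and 0.999 and 2.75 CPM in ceiling LEC, and the part of B cell RNA in the Fcgr2b values was not tested. Of its 50-base exon stretches 4.38% also occur elsewhere in the annotated transcripts.

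In BEC the receptors other than Scarb1, Stab1 and Colec12 were low. The 6 that were at least 1.5-fold higher in the SAH library were Marco, Msr1, Stab2, Mrc1, Clec4g and Fcgr2b. Their BEC levels ran between 1.67 and 17.0 CPM in the SAH and between 0.602 and 5.64 CPM in the sham library, with folds between 1.74 for Stab2 and 3.70 for Marco. Fibroblastic cells held 8.96 CPM of Marco in the SAH and 3.31 CPM in the sham library, 4.38 and 1.73 CPM of Msr1, 6.41 and 1.44 CPM of Stab2, 0.509 and 0.719 CPM of Mrc1, 0.611 and 0.288 CPM of Clec4g, and 1.63 and 1.15 CPM of Fcgr2b. The part of free RNA in the BEC levels was not tested. Mrc1 in BEC was at a fold of 1.02 without the 10 cells with most of its UMIs. Those cells were left out for their own Mrc1 count, so this value describes concentration only.

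The main differences of remaining LEC stood without the cells that carried blood endothelial genes. Among the 506 SAH and 488 sham remaining LEC with under 2 UMIs of Ly6c1 and Flt1 together, Marco was at 1103 CPM in the SAH and 530 CPM in the sham library, a fold of 2.08 [1.96, 2.21]. Msr1 was at 484 and 186 CPM there, a fold of 2.60 [2.36, 2.86], and Stab1 at 725 and 440 CPM, a fold of 1.65 [1.54, 1.76]. All 3 receptors thus kept folds above 1.5 in the cells with the fewest blood endothelial UMIs.

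Some of the receptors were found in the same cells of the remaining class. This class mixes cells with and without blood endothelial UMIs, and these differ in Marco and Msr1. In the SAH library those with at least 2 UMIs of Ly6c1 and Flt1 had 483 and 181 CPM, the others 1103 and 484 CPM. The shares below cover the whole class, and the part of this mixture in them was not tested. After thinning, 37.0% of SAH and 22.7% of sham remaining LEC held UMIs of at least 3 of the 9 receptors, against 26.9% and 20.4% of ceiling LEC, 10.5% and 8.71% of floor LEC, and 0.683% and 0.433% of BEC. In the SAH library 63.6% [56.7, 70.2] of the 209 remaining LEC with Marco also had Msr1, against 25.4% [22.1, 28.9] of those without it. In the sham library the shares were 43.2% [32.2, 54.7] of 81 cells and 13.3% [10.7, 16.2]. Scarb1 went the other way, with 17.2% of SAH cells with Marco and 24.6% of those without, and 19.8% and 25.0% in the sham library, intervals that overlap in both. Mrc1 and Stab2 met in 56.2% of SAH and 56.1% of sham cells with Mrc1, against 25.6% and 20.6% of cells without.

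Likeness across LEC placed the receptors beside different genes. Over 2562 SAH and 2364 sham LEC and 3140 genes, the highest mean Pearson r on log-scaled counts was taken as a description of cells that share a library and a range of depths. Marco was most like Lyve1 (0.455), a hyaluronan receptor of lymphatic vessels, then Itga2b (0.397), an integrin subunit, and Ctsd (0.339), a lysosomal protease. Msr1 lay nearest Cyp1b1 (0.546), Cd55 (0.537) and Cpe (0.511), whose levels were highest in floor LEC. Stab1 lay nearest the tight junction gene Cldn5 (0.507), Mmrn1 (0.482) and Clca3a1 (0.454), and Stab2 nearest Tnc (0.702), Mmrn1 (0.629) and Gdf10 (0.597). Mrc1 was nearest Lyve1 (0.604), Gmfg (0.474) and F8 (0.457), Clec4g nearest Lyve1 (0.410), F8 (0.313) and Itga2b (0.309), and Colec12 nearest Ackr4 (0.331), which defines ceiling LEC, Gdf10 (0.316) and Mmrn1 (0.301). Scarb1 lay nearest Flt1 (0.646), Ly6c1 (0.645) and Sparcl1 (0.597), which are genes of blood endothelium, and no gene reached 0.19 with Fcgr2b.

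Those neighbours did not all differ between the libraries as the receptors did. Itga2b was at 577 CPM in SAH and 203 CPM in sham remaining LEC, a fold of 2.85 [2.66, 3.06], and Lyve1 at 2194 and 1318 CPM, a fold of 1.66 [1.62, 1.71]. Tnc and Gdf10, nearest to Stab2, were lower in the SAH library in ceiling LEC, at 788 against 1325 CPM for Tnc and 514 against 742 CPM for Gdf10, with folds of 0.59 [0.58, 0.61] and 0.69 [0.67, 0.72], while Stab2 was at 1.03 there.

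Other receptors of the same kinds were read as lists in remaining LEC, where 8.52% of all genes were at least 1.5-fold higher and 6.74% lower. Of 18 other scavenger receptors 12 were measured, 2 of them higher and 0 lower, with a median log2 difference of 0.33. Scara5, a ferritin receptor, had a fold of 1.55 [1.20, 2.00] and Cxcl16, a membrane chemokine that binds oxidised lipoprotein, 1.54 [1.36, 1.74], while Vldlr, a lipoprotein receptor, had 0.748 [0.577, 0.970], which was not past the 1.5-fold line. Of 21 other lectin-type receptors 12 were measured, 4 higher and 0 lower, with a median of 0.20. Clec1b, the receptor for podoplanin, was at 92.7 CPM in the SAH and 20.1 CPM in the sham library, a fold of 4.61 [3.73, 5.75]. Clec2d, a C-type lectin-like ligand of natural killer cell receptors, was at 531 and 228 CPM, a fold of 2.33 [2.18, 2.49]. At the low end of this list Cd93 had 0.742 [0.688, 0.801] and Ly75 1.02 [0.636, 1.64].

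Uptake and degradation genes were read in the same way. Of 26 genes of endocytosis and the lysosome, all measured, 6 were higher and 1 was lower, with a median log2 difference of 0.16. Lgmn, an endosomal protease, was at 726 CPM in the SAH and 444 CPM in the sham library, a fold of 1.64 [1.56, 1.72]. Of 5 other Fc receptors 2 were measured, 0 higher and 1 lower, Fcgrt with a fold of 1.49 [1.37, 1.61] and Fcer1g with 0.623 [0.400, 0.965] on 41 SAH and 48 sham UMIs.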

How the data were processed

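Cell Ranger 5.0, STAR, Seurat 3.0.2 and build mm10 are named in the submitters' processing notes. The authors deposited unnormalised UMI counts for every gene in each barcode, with 13766 SAH and 13952 sham barcodes and 78497486 and 72860197 UMIs. Barcodes under 501 UMIs were not present. Whether introns or strand entered the counting is not given in the sources used here.

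Entries sharing a symbol were summed. Barcodes with at least 500 genes and at most 10% mitochondrial UMIs were classed by marker genes, and counts were summed per class and library (Python 3.11.15, scipy 1.17.1). Scrublet, through scanpy 1.11.5 at an expected rate of 0.1, called 876 SAH and 729 sham doublets, which were kept, and removed as an alternative. Folds between libraries have exact conditional binomial intervals and shares have Clopper-Pearson intervals, both for counting error only. Differences of at least 1.5-fold on at least 50 UMIs over both libraries were counted. Class differences were tested with edgeR 4.0.16 (R 4.3.3), with TMM scaling, a library term and an adjusted p threshold of 0.05, and DESeq2 1.42.0 was an alternative. The steps were tested on simulated data. The 9 receptors were all named in every class. From the other lists up to 4 genes each were named, the 2 highest and 2 lowest folds in remaining LEC, and the 3 genes most like each receptor needed at least 50 CPM in LEC of each library. Some genes that the rule for the other lists names are not reported here. The members and lists were chosen with earlier results of these data known. Gene positions come from GENCODE on GRCm38 and promoters from RefSeq.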

Additional observations from a re-analysis of the deposited data

Results flagged for a closer look

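The CPM of Marco differed between the libraries in opposite directions by class. Its SAH over sham folds were 2.11 in remaining LEC, 0.514 in floor LEC, 2.94 in ceiling LEC and 3.70 in BEC. The difference between classes was not tested, since each condition is 1 library. The 10 cells with most Marco held 54.8% of its UMIs in SAH and 75.0% in sham floor LEC. The share of floor cells with a UMI ran the other way, at 15.7% and 6.95%, so no direction is read for floor LEC.

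Mrc1 was also lower in the SAH library in floor LEC, with a fold of 0.439, and higher in ceiling LEC at 1.78 and in BEC at 1.90, and the difference was not tested. These rest on 32 SAH and 68 sham UMIs in floor LEC, 170 and 79 in ceiling LEC, and 77 and 40 in BEC. Thinning cells to 2000 UMIs before the class rules gave 0.853 in ceiling LEC and 1.02 in BEC. Without the 10 cells with most Mrc1, left out for that count, the fold in BEC was also 1.02.

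Barcodes with Prox1 that failed the cell filter, 342 in the SAH and 365 in the sham library, entered no comparison. In them Marco was at 276 CPM in the SAH and 109 CPM in the sham library, a fold of 2.54. Msr1 was at 177 and 101 CPM, a fold of 1.75, and Stab1 at 817 and 444 CPM, a fold of 1.84. All 3 were higher in the SAH library, as in the kept remaining LEC, although these barcodes were not split into LEC classes. Only folds of at least 1.5 were flagged. Of the other receptors, Mrc1 was at 0.560 [0.368, 0.836] on 36 SAH and 85 sham UMIs, and Colec12 at 0.669 [0.450, 0.981]. Scarb1 was at 0.836, Stab2 at 1.01, Clec4g at 1.13, and Fcgr2b at 0.378 on 2 and 7 UMIs.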

How the results depend on the processing

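Of 512 values of a receptor's SAH over sham fold under other settings, 448 moved by less than their counting interval, 64 moved further, and 17 fell on the other side of 1. Of folds past the 1.5-fold line, that held for Mrc1 in ceiling LEC, at 0.853 when cells were thinned to 2000 UMIs before the class rules. Others were Mrc1 in remaining LEC at 1.37 in cells with no Ptx3, Fcgr2b there at 1.31 with at most 5% mitochondrial UMIs, and Scarb1 in floor LEC at 0.634 without cells with Ly6c1 and Flt1. That thinning also gave 0 receptors lower in floor LEC (3 as reported) and 3 higher in BEC (6 as reported). These counts also require the UMI minimum, which thinned cells reach less easily. By the fold alone, thinning took only Marco in floor LEC and Mrc1 in BEC inside the 1.5-fold line. The folds of Mrc1 and Colec12 in floor LEC stayed past it. So did those of Marco, Msr1, Stab2, Clec4g and Fcgr2b in BEC. A 2-fold line gave 1 lower in floor LEC and 1 higher in ceiling LEC (4 as reported). Prox1 at 2 UMIs gave 1 lower in remaining LEC (0 as reported). Leaving out cells with at least 2 UMIs of Ly6c1 and Flt1 gave 3 higher in floor LEC (1 as reported). Leaving out the 10 cells with most UMIs of a receptor, a setting chosen after seeing the data, gave 2 higher and 1 lower in floor LEC. The folds of Marco, Msr1 and Stab1 stayed past 1.5 under every setting tried in remaining LEC, at 1.85 to 2.93, 1.94 to 2.73 and 1.504 to 1.81, and in ceiling LEC, at 2.60 to 7.56, 1.80 to 2.17 and 1.52 to 1.59. The fold of Stab2 ran from 1.03 to 1.38 in remaining LEC, from 0.905 to 1.82 in floor LEC and from 0.991 to 1.12 in ceiling LEC. Its small difference between the libraries thus held most firmly in ceiling LEC. The cause of the changes was not tested.

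Of 315 class tests under other settings, 294 kept direction and call, 4 gained and 13 lost the call, and 4 turned. Without the library term 3 receptors differed between remaining and floor LEC and 5 between remaining and ceiling LEC (6 and 8 as reported), and the genes that differed were 1214, 679, 2100 and 2080 for the 4 pairs in the order reported, against 3457, 2326, 4348 and 4823. The turned values were small. Stab1 in remaining over ceiling LEC was 0.13 on the log2 scale at 2 Prox1 UMIs and 0.087 without cells with Ly6c1 and Flt1, and Scarb1 in floor over ceiling LEC was 0.079 without doublet calls and 0.21 without cells with Ly6c1 and Flt1. No paired analysis was possible because SAH and sham are 1 library each, while the class tests compare classes within each library through the library term. Leaving out a library left class ratios within the other, with no test.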
